A study of Homo sapiens with 5 samples.

Results

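SMA4 peaks at H3K4me3-marked chromatin with RUNX1 are the subject here, in MOLT-4 cells, an established human line of T cell acute lymphoblastic leukaemia. They were chosen from the overlap of deposited peak lists: an SMA4 peak on chromosomes 1 to 22 or X was taken where it shared at least 1 bp with a RUNX1 peak and at least 1 bp with an H3K4me3 peak. The rule found 310 of 1475 SMA4 peaks, or 21.0% of the list (95% Wilson interval 19.01 to 23.17%). The others overlapped RUNX1 only (662 peaks), H3K4me3 only (11 peaks) or neither (492 peaks). Per the labels, the study used CUT&RUN, in which nuclease tethered by an antibody frees the DNA around its target for sequencing. It made 1 library each for SMA4, RUNX1 and H3K4me3 in MOLT-4 cells grown in RPMI-1640 with serum, with no other treatment named, and 2 IgG libraries whose peaks were not analysed here. What the SMA4 label stands for is not spelled out in the labels, so the name is used as given.

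With 1 library per antibody there are no replicates, so no difference described here was tested, and every interval covers counting error over peaks of single libraries. Neighbouring peaks are not independent, so these intervals are too narrow. The lists give positions only, with no read depth, height or p-value per peak. The SMA4 list came from another batch folder and another pipeline (cutruntools) than the RUNX1 and H3K4me3 lists, and antibody, batch and pipeline cannot be told apart. It is also the shortest, with 1475 peaks against 36736 RUNX1 and 13181 H3K4me3 peaks. An hg19 sequence or annotation was not used here. No peak is therefore given a gene, a distance to a transcription start or a motif, and whether each H3K4me3 peak marks a promoter was not checked.

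Trimethylation of histone H3 at lysine 4 (H3K4me3) is carried by nucleosomes that flank the starts of active and poised genes, and broad domains of it are known at genes that define a cell's identity. RUNX1 is a DNA-binding transcription factor of the runt family that works with its partner CBFB. It is required for blood formation and for early T cell development, and its gene is a recurrent target of mutation and translocation in leukaemia.

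The 310 SMA4 peaks fell on 305 different H3K4me3 peaks, 2.31% of that list, and on 305 different RUNX1 peaks, 0.830% of that list. The shortness of the SMA4 list limits both shares. At all 310 sites at least 1 base was shared by an SMA4, a RUNX1 and an H3K4me3 peak at once. The rule nearly fixes this count, because an SMA4 peak wholly inside 1 list shares such a base wherever it touches the other. Most SMA4 peaks did not reach past the other lists, which their smaller width favours. The median widths were 218 bp for SMA4, 1276 bp for these RUNX1 peaks and 1360 bp for these H3K4me3 peaks. Of the 310, 248 lay wholly inside H3K4me3 peaks (80.0%, interval 75.2 to 84.1%), 281 wholly inside RUNX1 peaks (90.6%, interval 86.9 to 93.4%) and 232 wholly inside both (74.8%). Among SMA4 peaks at RUNX1 only, 547 of 662 lay wholly inside RUNX1 peaks (82.6%), which were narrower there (median 964.5 bp). At 24 of the 310 sites under 50% of the SMA4 peak lay in H3K4me3, and at 11 sites under 50% lay in RUNX1. Only 3 of the 310 bridged 2 H3K4me3 peaks and 1 touched 2 RUNX1 peaks.

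The SMA4 peaks nearest to the edge of the rule lay on both sides of it. Just inside it, the smallest overlap with H3K4me3 was at chr8:66863943-66864396 (hg19), which shared 4 of its 454 bp with a 249 bp H3K4me3 peak. The next were at chr6:135644476-135644729 with 5 bp, chr1:89531008-89531172 with 15 bp, chr4:40192396-40192579 with 19 bp and chr9:127533699-127533880 with 25 bp. The smallest overlaps with RUNX1 were 7 bp at chr3:151962140-151962310, 10 bp at chr8:67837023-67837190 and 15 bp at the same chromosome 4 site, followed by 42 bp at chr3:187872343-187872639 and 43 bp at the same chromosome 1 site. Just outside it, 5 SMA4 peaks at RUNX1 missed an H3K4me3 peak by 12 bp (chr9:5627156-5627313), 27 bp (chr5:96152438-96152684), 33 bp (chr2:96811239-96811485), 34 bp (chr16:70099978-70100162) and 35 bp (chr6:139696153-139696481). Of the 11 SMA4 peaks at H3K4me3 that missed RUNX1, the nearest lay 108 bp from it (chr10:122611272-122611417), followed by 154 and 257 bp (chr12:10021724-10021945 and chr12:10020841-10021034), 162 bp (chrX:56589624-56589775) and 170 bp (chr7:92466820-92466980). The farthest was 1134408 bp away, at chr2:212475926-212476337. Some SMA4 peaks sat close to the mark without touching it. Within 1 kb of an H3K4me3 peak were 38 of the 662 at RUNX1 only (5.74%) and 5 of the 492 at neither (1.02%). The share of RUNX1 peaks or of the genome that close to the mark was not computed. These counts therefore cannot be read as many or few. The median distance to the mark was 95.8 kb for SMA4 peaks at RUNX1 only.

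SMA4 peaks lay on both sides of the centre of the H3K4me3 peak, spread over its inner part and fewer towards its edges. In 5 zones of equal length from centre to edge, the counts of midpoints were 76, 65, 84, 36 and 25. The median distance between the SMA4 midpoint and the centre of the mark was 240 bp (quartiles 118 and 458 bp, interval of the median 214 to 276 bp). On a scale on which 0 is the centre and 1 an edge, the median was 0.445 (interval 0.384 to 0.496). The midpoint lay in the central 33.3% of the mark's length at 121 of 310 sites (39.0%, interval 33.8 to 44.6%), farther out but inside the mark at 165 sites (53.2%) and beyond its edge at 24 sites (7.74%). The central share followed no steady trend over widths of the mark, and the intervals of all classes overlap. It was 29.4% of 51 sites under 500 bp (interval 18.7 to 43.0%). At 500 to under 1000 bp it was 49.1% of 57 (interval 36.6 to 61.7%). At 1000 to under 2000 bp it was 33.6% of 116 (interval 25.67 to 42.62%). At 2000 bp or more it was 45.35% of 86 (interval 35.25 to 55.84%). On the lower-coordinate side of the centre lay 155 of the 310 midpoints, those beyond the edge included. On the higher-coordinate side lay 154, and 1 lay at the centre. Which of these sides faces a gene cannot be told without an annotation.

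**Figure D1:**
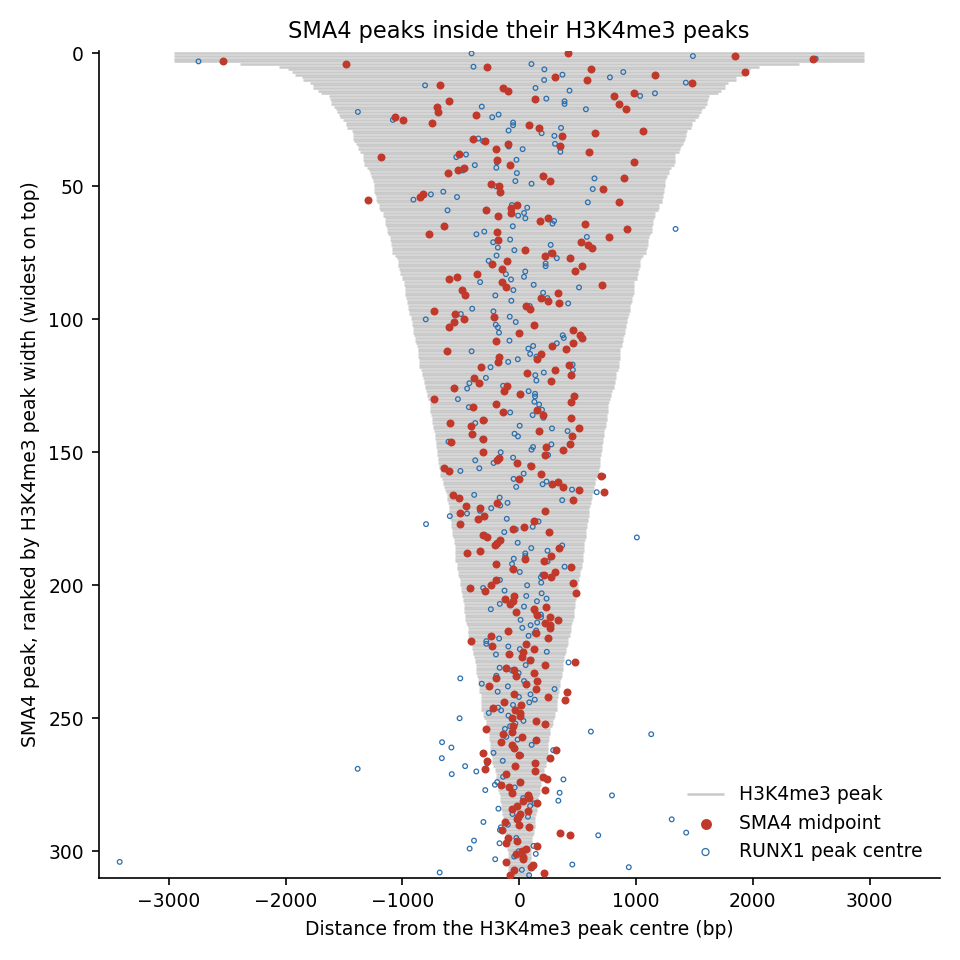
Each row is 1 of the 310 SMA4 peaks, ordered by the width of its H3K4me3 peak. Grey lines span the H3K4me3 peak, red points are SMA4 midpoints and blue circles are RUNX1 peak centres, all in bp from the H3K4me3 centre. Red points lie on both sides of the centre, with 155 on the lower-coordinate side, and 24 fall beyond the grey line.

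RUNX1 centres kept closer to the middle of the same H3K4me3 peaks. Their median distance from the centre of the mark was 197 bp, against 240 bp for SMA4, and 162 of 310 (52.3%, interval 46.7 to 57.8%) lay in its central 33.3%, against 121 for SMA4. The counts parted in the inner and middle zones. Between 0 and 0.2 on the scale there were 76 SMA4 midpoints and 103 RUNX1 centres, whereas between 0.4 and 0.6 there were 84 SMA4 midpoints and 56 RUNX1 centres. Beyond the edge the order turned round, with 24 SMA4 midpoints and 43 RUNX1 centres. Among the 202 SMA4 peaks in H3K4me3 peaks of at least 1000 bp, 47 midpoints (23.3%) and 85 RUNX1 centres (42.1%) lay between 0 and 0.2. A wide RUNX1 peak that covers much of the mark has its centre near the middle of it by geometry, so the distance between the 2 distributions is not a measure of binding.

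**Figure D2:**
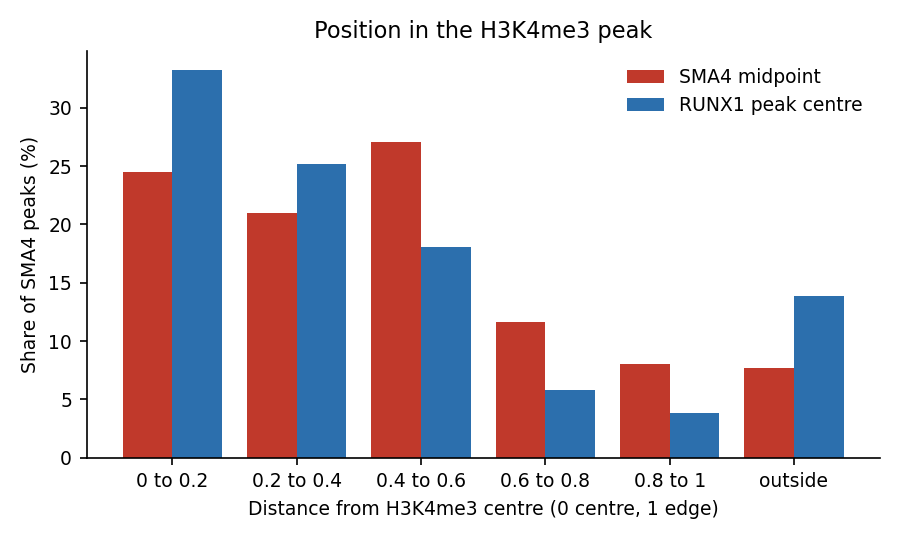
Share of the 310 sites, in percent, by distance from the H3K4me3 centre (0 is the centre, 1 an edge) for SMA4 midpoints in red and RUNX1 peak centres in blue. SMA4 midpoints are most frequent between 0.4 and 0.6, at 27.1%, and RUNX1 centres between 0 and 0.2, at 33.2%.

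Where SMA4 was absent, the position of RUNX1 in marks of like width lay within the same interval. In H3K4me3 peaks of 1000 to under 2000 bp, RUNX1 centres lay in the central 33.3% at 66 of 116 sites with SMA4 (56.9%, interval 47.8 to 65.5%) and at 2467 of 4502 H3K4me3 peaks with RUNX1 and no SMA4 (54.8%, interval 53.3 to 56.3%). Over all widths the shares were 52.3% and 43.3%. The RUNX1 peak was chosen by bases shared with SMA4 at sites with SMA4, and by bases shared with the mark elsewhere. The choices can differ where a mark holds several RUNX1 peaks, and the effect of this was not tested.

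SMA4 midpoints lay 179 bp from the RUNX1 centre at the median (quartiles 87 and 354 bp), and 187 of 310 were nearer to it than to the centre of the mark (60.3%, interval 54.8 to 65.6%). That RUNX1 peak was the one sharing most bases with SMA4, and it was wider than the mark at 144 of 310 sites (46.45%). Both the choice and the widths can favour nearness to its centre, and their part was not tested. Inside the RUNX1 peak the position resembled that of SMA4 peaks outside the mark. In the central 33.3% of the RUNX1 peak lay 172 of 310 midpoints at H3K4me3 (55.5%, interval 49.9 to 60.9%) and 376 of 662 at RUNX1 only (56.8%, interval 53.0 to 60.5%). The distance in bp was larger at H3K4me3, with medians of 179 and 131 bp, and the RUNX1 peaks were also wider there, with medians of 1290 and 964.5 bp. In RUNX1 peaks of 1000 to under 2000 bp the median distances were 193 bp (interval 158 to 244 bp, 143 sites) and 161 bp (interval 138 to 199 bp, 209 sites), and these intervals overlap.

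H3K4me3 peaks that held the SMA4 peaks were wider at the median than H3K4me3 peaks with RUNX1 and no SMA4. Their median width was 1360 bp (interval 1177 to 1492 bp), against 1059 bp (interval 1042 to 1077 bp) for the 11309 H3K4me3 peaks with RUNX1 and no SMA4. Of the 305, 81 were 2000 bp or wider (26.6%), against 12.0% in the whole H3K4me3 list and 13.2% among those with RUNX1 and no SMA4. Overlap was the rule, so width is not independent of it, and its part in this difference was not tested. RUNX1 peaks were wider too, at a median of 1276 bp against 1004 bp for RUNX1 peaks with H3K4me3 and no SMA4. Other features of the mark lay closer together. RUNX1 peaks covered 86.1% of the bases of the median H3K4me3 peak with SMA4 and 84.4% of that without. The mark held 2 or more RUNX1 peaks at 32 of 305 H3K4me3 peaks with SMA4 (10.5%, interval 7.53 to 14.4%) and at 9.11% of those without. A second H3K4me3 peak lay within 1 kb of 21.3% (interval 17.1 to 26.2%) of those with SMA4, against 27.0% of those without. Widths here are those of single listed peaks, so a mark split into several peaks counts as narrower ones. The widths were not compared with such peaks joined, and the part of splitting in the difference was not tested.

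The H3K4me3 peaks at these sites were between 179 and 5905 bp wide, against 179 to 8846 bp in the whole list. H3K4me3 peaks under 500 bp held 51 SMA4 peaks, those of 500 to under 1000 bp held 57, those of 1000 to under 2000 bp held 116 and those of 2000 bp or more held 86. Relative to the H3K4me3 peaks with RUNX1, those that held one of the SMA4 peaks numbered 1.72%, 2.36%, 2.49% and 5.12% in the same order. They include the 391 bp H3K4me3 peak chr2:86946856-86947246, which met no RUNX1 peak itself. Per length of the H3K4me3 peaks with RUNX1, the narrowest class came highest. SMA4 midpoints inside the mark numbered 39.0 per Mb in the narrowest class and 28.4, 17.2 and 20.6 per Mb in the wider classes. These lengths leave out H3K4me3 peaks without RUNX1, which were mostly narrow. Those with RUNX1 numbered 2957 of 4319 under 500 bp and 1581 of 1582 at 2000 bp or more. The order per length of all H3K4me3 peaks was not computed.

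In broad H3K4me3 peaks the mark reached farther from the SMA4 midpoint on one side than on the other, as it does for any point off its centre. At 2000 bp or more, the shorter side of the mark measured 834 bp at the median (interval 752 to 943 bp) and the longer side 1811 bp (interval 1686 to 1962 bp). At 1000 to under 2000 bp the sides were 383.5 and 1043 bp. The median distance from the centre was 309.5 bp at 1000 to under 2000 bp and 524.5 bp at 2000 bp or more, and 1.72% and 1.16% of midpoints in these classes fell beyond the edge.

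At H3K4me3 peaks under 500 bp the RUNX1 peak was wider than the mark at 49 of 51 sites (96.1%), with a median RUNX1 width of 1140 bp. Without SMA4 the share was much the same, at 2765 of 2907 such H3K4me3 peaks with RUNX1 (95.1%). At the 51 sites, 17 SMA4 midpoints (33.3%, interval 21.97 to 47.03%) lay beyond the edge of the mark, which an overlap of 1 bp readily allows in so narrow a mark. On chromosome 4, a 195 bp H3K4me3 peak and the SMA4 peak at chr4:109094207-109094411 lay within a RUNX1 peak of 9821 bp, the widest at any of the 310 sites. At 2000 bp or more the RUNX1 peak was the wider peak at 15 of 86 sites (17.4%). SMA4 peaks were 252 bp wide at the median in H3K4me3 under 500 bp (interval 205 to 303 bp) and 201 bp in H3K4me3 of 2000 bp or more (interval 185 to 240 bp), with overlapping intervals. Whether the narrow H3K4me3 peaks lie at gene starts or elsewhere was not tested.

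SMA4 peaks at these sites had widths within the range of the rest of the list. The median was 218 bp (interval 206 to 229 bp), against 229.5 bp (220 to 245 bp) at RUNX1 only, 210 bp (202 to 220 bp) at neither and 219 bp in the whole list. Of the 310, 131 were under 200 bp wide (42.3%), against 40.2% of all 1475.

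SMA4 peaks at RUNX1 and H3K4me3 mostly stood alone. Another SMA4 peak lay within 10 kb of 29 of the 310 (9.35%, interval 6.59 to 13.1%), against 166 of 662 at RUNX1 only (25.1%, interval 21.9 to 28.5%), 117 of 492 at neither (23.8%) and 21.3% of the whole list. The nearest other SMA4 peak was 492 kb away at the median, against 121 kb at RUNX1 only and 175 kb at neither. The number of RUNX1 peaks around them was lower than at RUNX1 only and close to that of the whole list, by the share with 5 or more. On average 2.04 RUNX1 peaks had their midpoint within 10 kb of the SMA4 midpoint, against 2.59 at RUNX1 only, and 5 or more did so at 8.06% (interval 5.52 to 11.6%), against 13.9% (interval 11.5 to 16.7%), so that these 2 intervals just meet. The share was 2.44% at neither and 8.81% in the whole list. Whether the shorter distances at RUNX1 only come from a few dense regions was not tested.

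**Figure D3:**
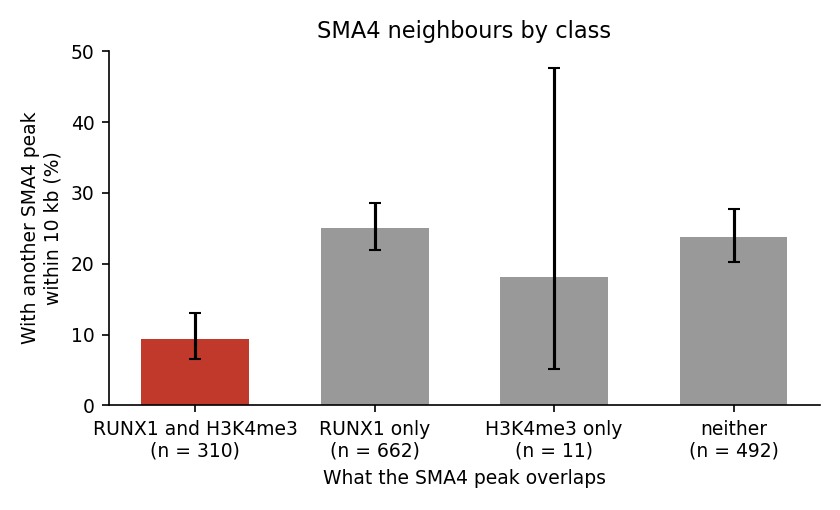
Bars give the percentage of SMA4 peaks with another SMA4 peak within 10 kb, by what the peak overlaps, and whiskers the 95% Wilson interval. The bar for RUNX1 and H3K4me3 reads 9.35%, against 25.1% for RUNX1 only and 23.8% for neither, and the interval for the 11 peaks at H3K4me3 only is wide.

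Some neighbours shared a mark: 7 H3K4me3 peaks held more than 1 of the 310 SMA4 peaks. The fullest was the 5905 bp H3K4me3 peak at chr3:35680506-35686410, the widest that held any of the 310. It overlapped 4 RUNX1 peaks, and 3 of these carried 1 SMA4 peak each. The SMA4 peaks lay at chr3:35683796-35683952, chr3:35685140-35685476 and chr3:35685892-35686046, all on the higher-coordinate side of the centre, 416, 1850 and 2511 bp from it. The RUNX1 peak at the lower-coordinate end, chr3:35680314-35681910, had no SMA4 peak. Farther out on the higher-coordinate side, 2 more SMA4 peaks at chr3:35686989-35687211 and chr3:35687501-35687760 overlapped neither list.

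**Figure D4:**
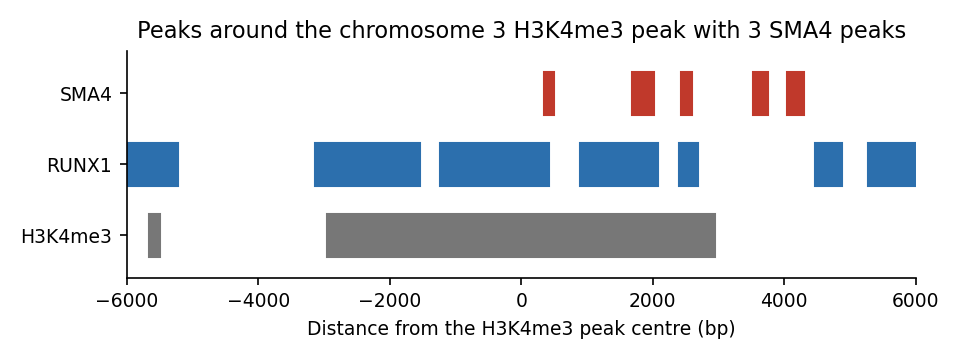
Peaks of the 3 lists within 6000 bp of the centre of the chromosome 3 H3K4me3 peak, drawn to scale in bp from that centre, with peaks that run past the window cut at its ends. The 3 SMA4 peaks inside the mark lie 416, 1850 and 2511 bp to the right of the centre, and the 2 farther right lie outside both other lists.

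The other 6 held 2 SMA4 peaks each, and in every one both overlapped the same single RUNX1 peak, though not always with their whole length. The widest was chr8:66752018-66755236 (3219 bp), with SMA4 midpoints 1449 bp apart on opposite sides of its centre, inside a RUNX1 peak of 2889 bp. In the H3K4me3 peak chr15:48622643-48625606 (2964 bp) the midpoints were 830 bp apart, and RUNX1 covered 52.3% of the mark. At chr12:62653225-62655296 (2072 bp) they were 770 bp apart and at chrX:48858007-48859106 (1100 bp) 719 bp apart. At chr14:86400938-86401772 (835 bp) the distance was 473 bp. At chr18:23669441-23671013 (1573 bp) it was 462 bp, and RUNX1 covered all of the mark there. One further H3K4me3 peak, chr12:10019279-10022853 (3575 bp), mixed the classes: beside 1 SMA4 peak in RUNX1 it held 2 that missed RUNX1, by 154 and 257 bp.

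The widest H3K4me3 peaks placed SMA4 at differing depths. After chromosome 3 came the 5903 bp peak chr2:182321329-182327231, in which SMA4 (chr2:182321509-182321988, 480 bp) lay near 1 end, 2531 bp from the centre, in a RUNX1 peak of 1882 bp that ran past that end. In the 4785 bp peak chr5:42991173-42995957, SMA4 at chr5:42992008-42992161 was 1480 bp from the centre. In chr7:142494048-142498159 (4112 bp), SMA4 at chr7:142495640-142496010 was 279 bp from the centre and met a RUNX1 peak of 221 bp, the minimum width of that list. In chr4:129730652-129734601 (3950 bp) the distance was 615 bp, and in chr4:103746139-103749850 (3712 bp) it was 310 bp. In chr1:158298127-158302018 (3892 bp) SMA4 at chr1:158301858-158302150 ran over the edge of the mark, 1931 bp from its centre, while wholly inside RUNX1. The 3831 bp peak chr5:43039248-43043078 held SMA4 at chr5:43042165-43042488, 1164 bp from the centre.

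The 10 sites with the widest RUNX1 peaks were of 2 kinds. Beside the 9821 bp peak on chromosome 4 were RUNX1 peaks of 6125 bp around chr1:101775093-101775329, 4810 bp around chr8:66863943-66864396, 4359 bp around chr4:71600416-71600718, 4154 bp around chr17:66342679-66343122, 4074 bp around chr19:6737424-6737793 and 3897 bp around chr6:135644476-135644729. In these 7 the mark was narrow, between 183 and 521 bp. The other 3 of the 10 widest combined wide RUNX1 with a wide mark: the 2 sites on chromosome 5 already given, with RUNX1 peaks of 4291 and 3874 bp, and chr10:17270290-17270473, with a RUNX1 peak of 3672 bp and a mark of 2667 bp.

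The widest of the 310 SMA4 peaks was chr4:145579981-145580969 (989 bp), which overran the 327 bp H3K4me3 peak it overlapped most and touched a second one. The next, chr1:1623948-1624899 (952 bp), shared 157 bp with an H3K4me3 peak of 240 bp and ran past 1 edge of it. Its midpoint lay 319 bp beyond that edge. It overlapped 2 RUNX1 peaks, the larger share falling in one of 247 bp. Others were chr4:169401570-169402411 (842 bp) in a mark of 1419 bp, chr7:157462669-157463376 (708 bp) at a mark of 499 bp, chr7:2393742-2394435 (694 bp) at a mark of 614 bp and chr21:25259957-25260648 (692 bp) at a mark of 511 bp. The remaining 4 of the 10 widest, chr14:31676858-31677515, chr22:29810793-29811431, chr4:178230291-178230898 and chr9:98079691-98080293, measured 658, 639, 608 and 603 bp. No list of artefact-prone regions was applied, and whether any of these wide peaks lies in one was not tested.

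Some sites lay near each other in separate H3K4me3 peaks. With SMA4 peaks no more than 100 kb apart joined, 31 of the 310 fell into 15 runs that spanned 2 or more H3K4me3 peaks. The only run of 3 was on chromosome 5, at chr5:42992008-43042488, where SMA4 peaks in 3 H3K4me3 peaks lay within 50.5 kb. Runs of 2 included chr1:198625509-198651408 (25.9 kb), chr3:151962140-151986621 (24.5 kb), chr2:152117719-152145090 (27.4 kb), chr6:25138990-25167950 (29.0 kb), chr13:76112069-76123860 (11.8 kb) and chr22:29196724-29198171 (1.45 kb). The H3K4me3 peaks of the chromosome 22 run, chr22:29195219-29197416 and chr22:29197940-29198291, lay within 1 kb of each other. They would count as 1 mark with H3K4me3 peaks within 1 kb joined. The joining distance of 100 kb between SMA4 peaks was chosen after the lists had been seen. No such count was made for the other SMA4 peaks, so 31 of 310 cannot be read as many or few.

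The sites were found on every chromosome used, from 34 on chromosome 1 to 5 each on chromosomes 15, 20 and 21. As a share of the SMA4 peaks on a chromosome, they were highest on chromosome 17, with 12 of 24 (50%, interval 31.4 to 68.6%), chromosome 22, with 9 of 20 (45.0%, interval 25.8 to 65.8%), and chromosome 19, with 7 of 16 (43.8%, interval 23.1 to 66.8%). They were lowest on chromosome 18, with 6 of 46 (13.0%), chromosome 13, with 6 of 45 (13.3%), and chromosome 5, with 16 of 118 (13.6%, interval 8.52 to 20.9%). Chromosomes 17, 19 and 22, picked here for their high values, together had 28 of 60 SMA4 peaks at both lists (46.7%), against 282 of 1415 on the others (19.9%). These 3 chromosomes held 16.0% of all H3K4me3 peaks and 4.07% of all SMA4 peaks.

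**Figure D5:**
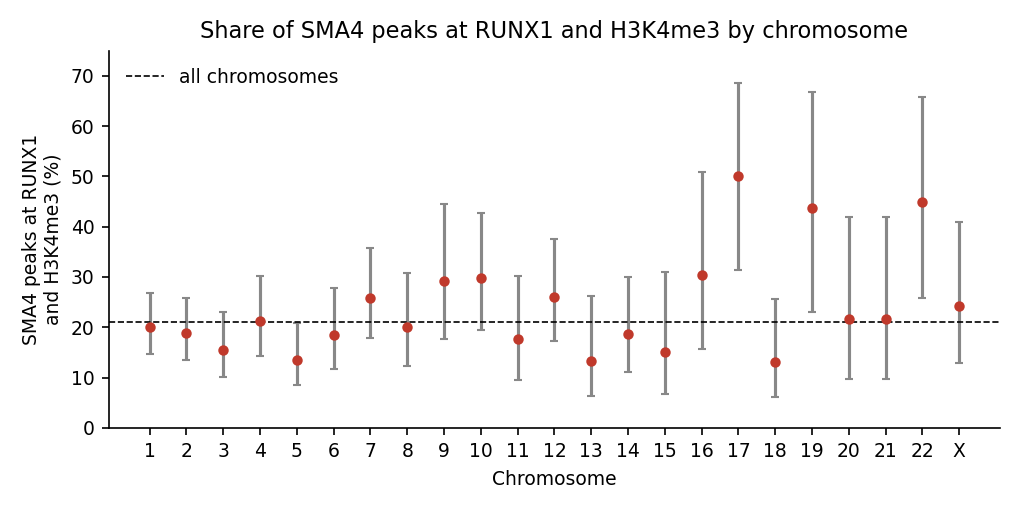
Points give the percentage of SMA4 peaks on each chromosome that overlapped both RUNX1 and H3K4me3, with 95% Wilson intervals, and the dashed line the 21.0% of all chromosomes. Chromosomes 17, 19 and 22 lie highest, at 50%, 43.8% and 45.0%.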

How the data were processed

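CUT&RUN peak lists of 3 libraries from MOLT-4 cells (SMA4, RUNX1 and H3K4me3, 1 library each) were used. The authors deposited each list as chromosome, start, end and peak name, with no other value. Per the file headers, RUNX1 and H3K4me3 peaks came from MACS2 in a folder named for batch 2, and SMA4 peaks from cutruntools with q under 0.01 on all fragment lengths in a folder named for batch 3. Per the submitters' processing notes, MACS2, SEACR and hg19 were used, with no versions or roles. The aligner, the threshold of the RUNX1 and H3K4me3 lists and the read depth were not given in the sources used here. Only 4 of 1479 SMA4, 41 of 36777 RUNX1 and 18 of 13199 H3K4me3 peaks lay outside chromosomes 1 to 22 and X and were left out.

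Overlap meant at least 1 bp shared. Where an SMA4 peak met several peaks of a list, the one sharing most bases was used for its position. Where an H3K4me3 peak without SMA4 met several RUNX1 peaks, the one sharing most bases with the mark was used. Midpoints and edges were compared in hg19 coordinates, written 1-based (Python 3.11.15, numpy 2.4.6, pandas 2.3.3, scipy 1.17.1). Shares have 95% Wilson intervals and medians exact binomial intervals. The code was tested on simulated peaks. Sites and lists were chosen with earlier results of these data known. Named were H3K4me3 peaks with 2 or more SMA4 peaks, the 10 sites with the widest H3K4me3, RUNX1 and SMA4 peaks, the 5 nearest each overlap threshold, and, after seeing values, sites bridging 2 peaks, runs and mixed peaks. Planned steps on transcription starts, gene lists, motifs and printed sequence needed hg19 sequence or annotation and were not run.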

Additional observations from a re-analysis of the deposited data

How the results depend on the processing

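The number of SMA4 peaks at both other lists stayed between 261 and 357 over the 6 alternatives run, against 310. It was 281 with at least 50% of the SMA4 peak in each list and 261 with H3K4me3 peaks of at least 500 bp only. The alternative asking for at least 1 base shared by all 3 peaks left it at 310, which the rule nearly fixes. The median distance from the H3K4me3 centre (0.445 on the scale from centre to edge) and the share in the central 33.3% (39.0%) moved by less than their intervals with neighbouring H3K4me3 peaks joined (0.472 and 37.1%), with H3K4me3 of at least 1000 bp only (0.432 and 38.6%) and with 1 SMA4 peak per H3K4me3 peak (0.444 and 39.1%). Both moved more, to 0.372 and 46.0%, for the 248 SMA4 peaks wholly inside the mark, a choice added after the data were seen, which by its construction removes peaks at the edges. The 38.6% at H3K4me3 of at least 1000 bp pools width classes whose intervals overlap. The share was 33.6% (interval 25.67 to 42.62%) at 1000 to under 2000 bp and 45.35% (interval 35.25 to 55.84%) at 2000 bp or more. The median SMA4 width was 215 bp with H3K4me3 of at least 500 bp, against 218 bp. Alternatives for transcription starts and motifs were not run. No paired analysis was possible because each antibody had 1 library. The lists give no depth, so an SMA4 site missing from them cannot be read as unbound.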
